A study of Mus musculus with 6 samples.

Results

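Amino acid nitrogen enters and leaves the hepatocyte through a small set of enzymes built around glutamate, and 10 of their genes were examined here in liver: Got1, Got2, Gpt and Gpt2 (aminotransferases), Glud1, Glul and Gls2 (glutamate and glutamine), and Oat, Aldh4a1 and Prodh2 (ornithine and proline). They were taken by gene symbol from the array rows that carried 1 symbol, and where a gene had several rows its row was selected on the highest mean signal of the 6 arrays. Of the 10 genes, 9 had such a row, out of 18820 genes in all, and Gls2, the liver glutaminase, is not analysed here. Rows were thus chosen by a mean over both genotypes, not by the difference between them, while the set itself was proposed with results of these data known.

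The livers came from C57BL6 mice of 2 months of age, 4 of genotype Pcyt2+/- and 2 wild type, with 1 array per mouse. Pcyt2 is the gene of the regulated enzyme in phosphatidylethanolamine synthesis, which forms CDP-ethanolamine. The sample titles call the first group knock-out, but their genotype field gives Pcyt2+/-, a heterozygous state, which is used here. No treatment is named for either group, both groups share the C57BL6 background, and the sources used here do not give how the allele was made, the sex of the mice or their feeding state. The study compared Pcyt2-deficient with control liver.

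Aminotransferases move the amino group of aspartate or alanine to 2-oxoglutarate and so make glutamate. The aspartate enzymes work in the cytosol (Got1) and in mitochondria (Got2) and are arms of the malate-aspartate shuttle, which carries reducing equivalents across the inner mitochondrial membrane. Glutamate dehydrogenase (Glud1) releases the amino group as ammonia for the urea cycle. The liver also divides this work by position: glutaminase and urea synthesis lie mainly around the portal tract, while glutamine synthetase (Glul) and ornithine aminotransferase (Oat) are held by hepatocytes around the central vein.

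The log2 signals of the array were crowded near its floor. Array medians lay between 4.397 and 4.403, the highest value was 13.02, and 792 of 18820 genes had a mean above 5. Pearson correlations between arrays over all rows, which are not independent, ran from 0.991 to 0.998. Pcyt2 had a mean of 4.64 ± 0.028 (SD, n = 4) in Pcyt2+/- and 4.84 ± 0.064 (SD, n = 2) in wild type liver, and its groups did not overlap. Its difference was -0.20 (limma adjusted p = 0.264 over all genes), and -0.97, or 50.9% of wild type signal, once the median linear signal of each array was subtracted (adjusted p = 0.0671). The 5 measured hepatocyte markers (Alb, Ttr, Apoa1, Apob and Fgb) had means above 5. The measured markers of cholangiocytes, Kupffer cells, lymphocytes, neutrophils, erythroid cells, fat, pancreas and muscle had no gene above 4.8. Markers without a row included Hba-a1, Hbb-bt, Hbb-bs, Spp1, Cfd, Prss1 and Pnlip, so these levels do not show that such cells were absent. Of the endothelial markers Clec4g had a mean above 4.8 (4.91), and of the stellate cell markers Dcn did (5.08). In bulk liver, fewer cells of a type and less RNA per cell cannot be told apart. Nothing in the labels says whether mice shared a litter or a cage, so p-values measure the spread between these 6 arrays.

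To show the genes with the largest differences beside the mitochondrial aspartate enzyme, whose chosen row did not differ in that direction, the 250 bases before the RefSeq start of each are given below, 5′ to 3′ on the gene's strand, from the RefSeq promoter table of build GRCm38.p6. Of the genes of the set, 8 had an entry there. Capitals mark matches on either strand to TATAAA (the TATA box), CCAAT (bound by NF-Y), GGGCGG (bound by Sp1) and AGAACA (a glucocorticoid receptor half-site), and 0 of the matches overlapped.
Got1 (chr19:43524606-43524855, strand -): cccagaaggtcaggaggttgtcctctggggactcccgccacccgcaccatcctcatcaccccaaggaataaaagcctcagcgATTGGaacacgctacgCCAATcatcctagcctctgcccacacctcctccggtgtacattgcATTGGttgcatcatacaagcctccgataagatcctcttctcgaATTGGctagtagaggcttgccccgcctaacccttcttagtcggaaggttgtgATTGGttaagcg
Gpt2 (chr8:85492326-85492575, strand +): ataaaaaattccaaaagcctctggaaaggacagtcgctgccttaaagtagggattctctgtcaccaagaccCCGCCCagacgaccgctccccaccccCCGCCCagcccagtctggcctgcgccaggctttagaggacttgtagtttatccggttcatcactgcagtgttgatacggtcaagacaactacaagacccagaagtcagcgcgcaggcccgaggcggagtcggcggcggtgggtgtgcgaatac
Oat (chr7:132576399-132576648, strand -): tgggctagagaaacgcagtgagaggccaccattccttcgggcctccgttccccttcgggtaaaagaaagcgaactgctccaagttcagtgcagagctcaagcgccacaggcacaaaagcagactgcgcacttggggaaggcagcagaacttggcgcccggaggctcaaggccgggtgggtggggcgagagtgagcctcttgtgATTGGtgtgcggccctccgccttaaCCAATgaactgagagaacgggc
Got2 (chr8:95888402-95888651, strand -): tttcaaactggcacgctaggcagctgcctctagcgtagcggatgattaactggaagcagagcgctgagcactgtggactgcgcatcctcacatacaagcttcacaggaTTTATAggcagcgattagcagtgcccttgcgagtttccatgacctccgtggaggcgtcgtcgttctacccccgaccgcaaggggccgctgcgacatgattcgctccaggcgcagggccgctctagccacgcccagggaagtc
The Got1 window held 5 CCAAT matches, 1 on the gene's strand and 4 on the other. Of 32851 promoter windows of that length, 33.8% held CCAAT and 0.213% held it at least 5 times. The Oat window held 2 CCAAT matches, 22 and 47 bases before the start. Gpt2 had 2 matches to GGGCGG, both on the other strand, and 32.7% of windows held that motif. Got2 had 1 match to TATAAA, on the other strand and 142 bases before the start, and 12.4% of windows held TATAAA. These shares count matches anywhere in the window and on either strand. AGAACA, present in 16.1% of windows, was in 0 of these 4. These matches describe letters only, and no factor binding was measured.

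Cytosolic aspartate aminotransferase was the gene of the set with the largest genotype difference. Got1 had log2 signals of 4.925, 4.958, 4.817 and 4.699 in Pcyt2+/- replicates 1 to 4 and of 5.278 and 5.756 in wild type replicates 3 and 4. Every Pcyt2+/- liver lay below both wild type livers, and the wild type livers lay further apart than the Pcyt2+/- ones. Mean Got1 signal was 4.85 ± 0.12 (SD, n = 4) in Pcyt2+/- and 5.52 ± 0.34 (SD, n = 2) in wild type liver. The difference was -0.67 (SE 0.13), with a 95% interval from -0.98 to -0.36. The Got1 signal in Pcyt2+/- liver was 63% of that in wild type. By limma with Benjamini-Hochberg adjustment over all genes it did not pass (adjusted p = 0.511), and its two-sided exact permutation p was 0.0667, the smallest that 4 against 2 arrays allow. Without wild type replicate 4 the difference was -0.43, and without wild type replicate 3 it was -0.91.

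Got2, the mitochondrial isoenzyme, whose signal stood far above the floor, had 8.398, 8.387, 8.359 and 8.420 in Pcyt2+/- and 8.342 and 8.352 in wild type liver. All Pcyt2+/- values were above the wild type ones, by a small margin. The difference was 0.044 (SE 0.017, limma adjusted p = 0.913), and it was 0.15 after quantile normalization.

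For Got2 the row matters. The gene lies on chromosome 8, but the row with the highest mean sits in the array's numbering among 6 rows of chromosome 5 genes. It stands between Gpc2 and 1700123K08Rik, and the RefSeq gene table of GRCm38.p6 places the pseudogene Got2-ps1 between them. A dim Got2 row, with a mean of 4.56, also has 6 neighbours on chromosome 5, and Got2-ps1 lies between its neighbours too. The remaining row has 5 of 6 neighbours on chromosome 8. On that row the Got2 signals were 8.328, 8.311, 8.289 and 8.334 in Pcyt2+/- and 8.316 and 8.305 in wild type liver. There the groups overlapped, with a difference of 0.0049. Probe sequences were not used here, so which transcript each row reads was not tested.

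**Figure D1:**
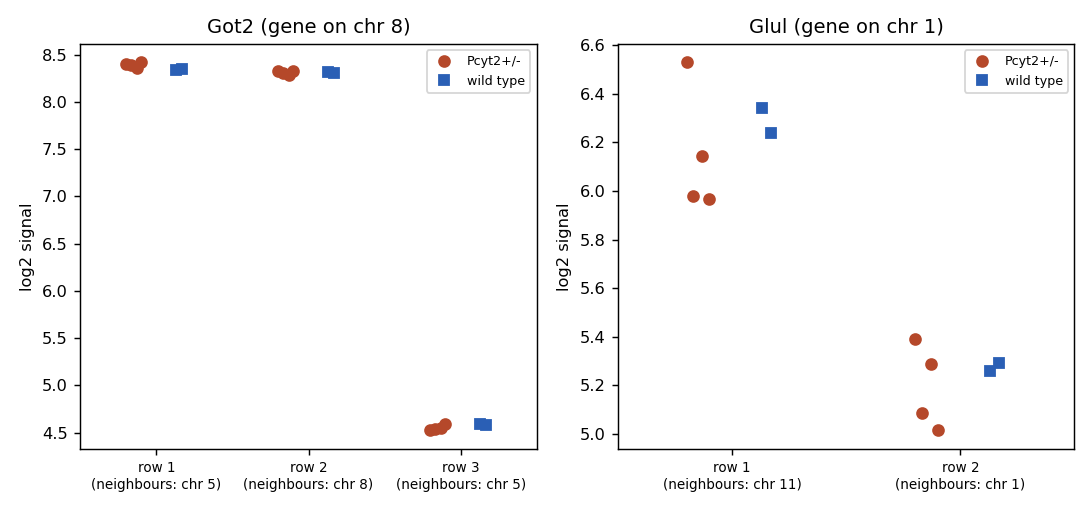
Log2 signal (y axis) of each array row annotated to Got2 (left) and Glul (right), ordered by mean, with circles for the 4 Pcyt2+/- and squares for the 2 wild type livers. The label under each row gives the chromosome of most of its neighbours in the array's numbering: the brightest Got2 row has its neighbours on chromosome 5 and the brightest Glul row on chromosome 11, while the genes lie on chromosomes 8 and 1.

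The aspartate enzymes were also set against each other within each array. Got1 minus Got2 had a mean of -3.54 ± 0.13 (SD, n = 4) in Pcyt2+/- and -2.83 ± 0.33 (SD, n = 2) in wild type liver, a difference between their changes of -0.71. It was -0.67 with the chromosome 8 row of Got2 and -1.73 with the median linear signal of each array subtracted. The deposited-scale values largely restate the Got1 difference of -0.67, because Got2 differed by 0.044, and by 0.0049 on its chromosome 8 row. With either row the groups did not overlap, but the two-sided exact permutation p of 0.0667, also when adjusted over the 2 pairs compared, did not pass 0.05, which 4 against 2 arrays cannot reach.

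Alanine aminotransferase is the enzyme whose activity in serum is read as a sign of liver injury. Gpt2, its mitochondrial form, had 4.925, 4.882, 4.979 and 4.894 in Pcyt2+/- and 5.039 and 5.243 in wild type liver. The Pcyt2+/- values were again all lower. They differed by -0.22 (SE 0.055), with a 95% interval from -0.35 to -0.092 (limma adjusted p = 0.662), and it was -0.12 without wild type replicate 4. Gpt, the cytosolic form, had 4.540, 4.565, 4.550 and 4.554 against 4.576 and 4.536. These groups overlapped, with a difference of -0.0039 and a 95% interval of -0.038 to 0.03, a sign that turned with median centring and without wild type replicate 3 or Pcyt2+/- replicate 1. The mean of Gpt, 4.55, was close to the array medians, so these values do not show whether the cytosolic form differed. Gpt minus Gpt2 was higher in Pcyt2+/- by 0.22 (two-sided exact permutation p = 0.0667, also when adjusted over the 2 pairs), and by 0.095 without wild type replicate 4, a value that restates the Gpt2 difference of -0.22 because Gpt lay near the floor.

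**Figure D2:**
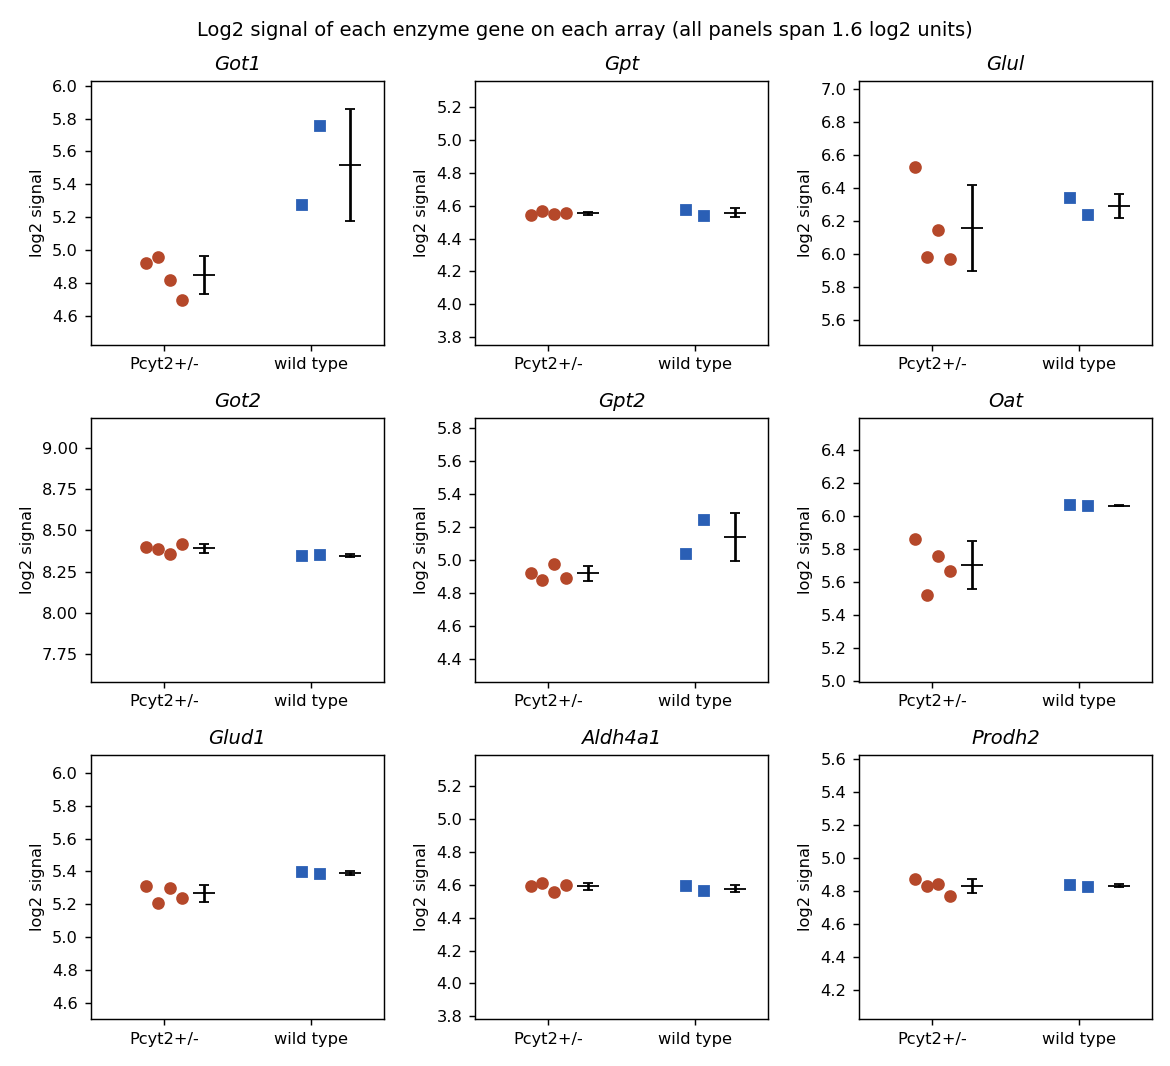
Log2 signal (y axis) of the 9 measured enzyme genes on each array, with circles for Pcyt2+/- livers, squares for wild type livers, and a dash with bars for each group's mean and SD. Each panel has its own level but the same height of 1.6 log2 units: Got1, Oat, Gpt2 and Glud1 have all circles below both squares, and Gpt, Aldh4a1 and Prodh2 lie within a narrow band.

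Glutamate dehydrogenase had a smaller difference with little scatter. Glud1 had 5.312, 5.211, 5.302 and 5.240 in Pcyt2+/- and 5.399 and 5.383 in wild type liver. The groups did not overlap. Its means of 5.27 ± 0.048 (SD, n = 4) and 5.39 ± 0.012 (SD, n = 2) differed by -0.12 (SE 0.029), with a 95% interval from -0.20 to -0.055. Limma gave an adjusted p of 0.632 over all genes.

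Glutamine synthetase, which fixes ammonia that escaped the urea cycle, varied more between mice than between genotypes. The chosen Glul row had 6.529, 5.979, 6.144 and 5.967 in Pcyt2+/- and 6.341 and 6.237 in wild type liver. Pcyt2+/- replicate 1 was the highest of all 6, and the other Pcyt2+/- livers were below both wild type ones. Genotypes differed by -0.13 (SE 0.15), with a 95% interval from -0.50 to 0.23 (limma adjusted p = 0.978). It was -0.26 without Pcyt2+/- replicate 1 and -0.072 without Pcyt2+/- replicate 4. This row too has 6 neighbours from another chromosome, 11, while Glul lies on chromosome 1. On the Glul row whose 6 neighbours lie on chromosome 1 the signals were 5.392, 5.087, 5.288 and 5.015 against 5.259 and 5.290, a difference of -0.079. Pcyt2+/- replicate 1 was the highest there as well.

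Ornithine aminotransferase, which turns ornithine into glutamate semialdehyde, had the next largest difference after Got1 on the deposited scale, while Gpt2 came next once the floor was subtracted. Oat had 5.862, 5.521, 5.758 and 5.665 in Pcyt2+/- and 6.064 and 6.058 in wild type liver. The groups did not overlap, and the wild type livers were nearly equal. Mean Oat signal was 5.70 ± 0.15 (SD, n = 4) against 6.06 ± 0.0048 (SD, n = 2). The difference was -0.36 (SE 0.084), with a 95% interval from -0.56 to -0.16 (limma adjusted p = 0.626 over all genes). Leaving out each array in turn gave -0.41 to -0.30.

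Proline and hydroxyproline enzymes had differences near 0. Aldh4a1, the dehydrogenase that oxidises glutamate semialdehyde to glutamate, had 4.590, 4.612, 4.558 and 4.596 against 4.590 and 4.562, a difference of 0.013 with a 95% interval of -0.028 to 0.053. Its groups overlapped, and the sign turned without wild type replicate 4. Prodh2, the hydroxyproline dehydrogenase, had 4.876, 4.829, 4.842 and 4.772 against 4.839 and 4.826, a difference of -0.0027 with a 95% interval of -0.066 to 0.06. That sign turned with quantile normalization and with median centring. Oat and Aldh4a1 share glutamate semialdehyde as product and substrate, but Aldh4a1, with a mean of 4.58, lay near the floor of the array, where differences are compressed, and was not set against Oat.

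**Figure D3:**
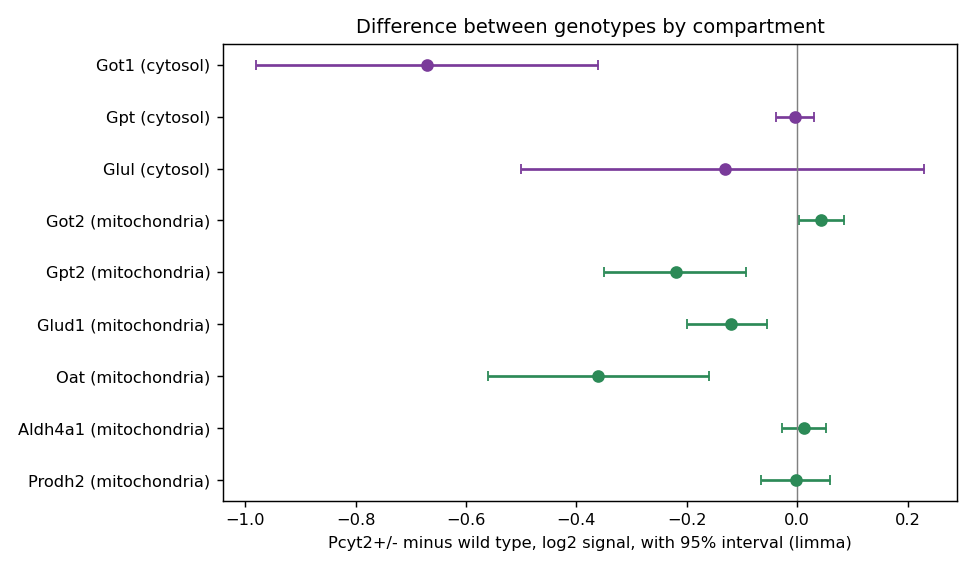
Difference of Pcyt2+/- minus wild type liver (x axis, log2 signal) for the 9 measured genes with limma's 95% interval, 3 cytosolic enzymes above 6 mitochondrial ones. Got1, Gpt2, Glud1 and Oat have intervals below 0, with differences from -0.67 for Got1 to -0.12 for Glud1. Got2, on its row with the highest mean, has an interval above 0, from 0.0036 to 0.085. The intervals are for each gene alone, and none of the 9 genes passed limma after adjustment over all genes. Both compartments hold genes near 0, of which Gpt and Aldh4a1 lie near the floor of the array.

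Over the set, 7 of 9 genes had a lower mean in Pcyt2+/-, beside 51.9% of all genes and 61.5% of the 1339 genes with a mean above 4.8. After quantile normalization and after median centring the sign of Prodh2 turned, and after median centring that of Gpt as well. In 4 of 9 (Got1, Gpt2, Glud1 and Oat) all Pcyt2+/- values were below both wild type values, beside 7.17% of all genes and 15.1% of those above 4.8. Got2 was the 1 of 9 with all Pcyt2+/- values higher, beside 5.67% of all genes. On its chromosome 8 row the Got2 groups overlapped, with a difference of 0.0049 (limma unadjusted p = 0.753). A difference of -0.2 or below was held by 3 of 9 (Got1, Oat and Gpt2), beside 0.489% of all genes and 6.50% of those above 4.8. Limma called 0 of 9 and 0 of 18820 genes (0%) at an adjusted p under 0.05. Without adjustment, p was under 0.05 for 4 of 9 on the lower side and 1 on the higher, where all genes gave 3.44% and 1.86% and the genes above 4.8 gave 13.9% on the lower side. After quantile normalization those background shares were 2.61% and 2.67%. The genes were chosen with these results known, so the counts describe the set and support nothing. The median difference was -0.12 over the set, -0.00073 over all genes and -0.013 over the genes with a mean above 4.8.

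By compartment, all 3 cytosolic genes (Got1, Gpt and Glul) had a lower mean as deposited, with Gpt turning after median centring, and 4 of 6 mitochondrial genes did (Gpt2, Glud1, Oat and Prodh2). Of the cytosolic genes Got1 alone, and of the mitochondrial ones Gpt2, Glud1 and Oat, had groups that did not overlap on the lower side. Each compartment also held genes with a difference near 0: Gpt in the cytosol, and Aldh4a1 and Prodh2 in mitochondria. Gpt and Aldh4a1, with means of 4.55 and 4.58, lay near the floor, so their values do not show whether they differed.

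Because signals crowd at the floor, differences of dim genes are compressed on the deposited scale. After subtraction of the median linear signal of each array, Got1 had 9.27, 9.96, 7.05 and 4.85 signal units in Pcyt2+/- and 17.65 and 32.96 in wild type liver. On this scale the Got1 signal in Pcyt2+/- was 31.1% of wild type (log2 difference -1.69, limma adjusted p = 0.199). Gpt2 stood at 65% (-0.62), Oat at 67.4% (-0.57), Glud1 at 83.2% (-0.27) and Glul at 87.2% (-0.20). Got2 stood at 103% and Prodh2 at 98.8%. Of the 3248 genes with a mean above 4.6 entered here, 61.3% had a lower mean and 0.0924% were called, and none of the enzyme genes was among those called. Gpt and Aldh4a1 were too dim to enter.

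By position in the lobule, both pericentral genes of the set, Glul and Oat, had a lower mean, and of the periportal ones Gpt was the 1 measured. Wider lists of zone markers were therefore read beside them. Of 11 pericentral markers outside the set, 7 had a lower mean, with a median of -0.012, and 1 was lower with an unadjusted p under 0.05. Slc1a2, the glutamate carrier of the same pericentral cells, differed by -0.061 (unadjusted p = 0.0356). Cyp1a2 differed by 0.20, Tbx3 by -0.073 and Cyp2e1 by -0.098, with overlapping groups. Of 9 measured periportal markers 6 had a lower mean, with a median of -0.14. By limma's unadjusted p under 0.05, 4 of them were lower and 1 higher. Beside these counts, 51.9% of all genes and 61.5% of those with a mean above 4.8 had a lower mean. By that p, 3.44% of all genes were lower and 1.86% higher, and 13.9% of those above 4.8 were lower. Means above 4.8 were held by 4 of the pericentral and 6 of the periportal markers. Arg1, which closes the urea cycle, differed by -0.79, Hsd17b13, a lipid droplet protein, by -0.14, Cps1, which opens the cycle, by -0.56, and Asl, the argininosuccinate lyase, by -0.15. None passed limma over all genes (adjusted p = 0.130, 0.219, 0.529 and 0.696). Cyp2f2, a periportal P450 named after its values were seen, was on the other side at 0.21.

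The Got1 profile was nearest to those of Cps1, Arg1 and Ahcy, the hydrolase of S-adenosylhomocysteine. Among the other 791 genes with a mean above 5, their mean-centred log2 values over the 6 arrays had the smallest root-mean-square differences from Got1: 0.0618 for Cps1, 0.0924 for Arg1 and 0.101 for Ahcy. Got1 itself deviated from its mean by 0.353 on that measure. All 3 had their highest signal in wild type replicate 4, as Got1 did, which follows from their choice by nearness to Got1.

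**Figure D4:**
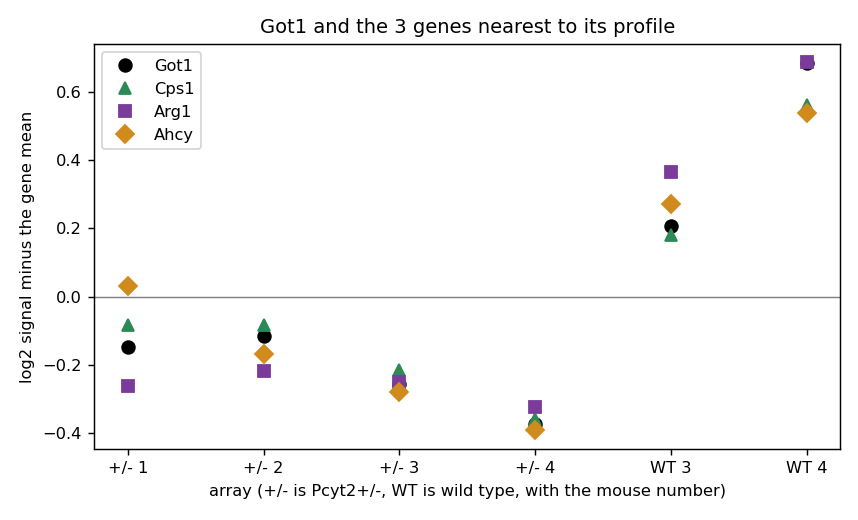
Log2 signal minus the gene's own mean (y axis) of Got1, Cps1, Arg1 and Ahcy on each of the 6 arrays (x axis). Got1 and its nearest gene, Cps1, keep within a root-mean-square difference of 0.0618, and all 4 genes are highest in wild type replicate 4. Cps1, Arg1 and Ahcy were picked for nearness to Got1, so the shared peak follows from that choice.

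Other genes of the pathways were read from lists, with counts at an unadjusted p under 0.05 since limma called 0 of them over all genes. Beside these counts, 3.44% of all genes were lower and 1.86% higher by that measure, and 13.9% of genes with a mean above 4.8 were lower. Among 11 other aminotransferases 2 were lower and 0 higher. Tat, which starts tyrosine breakdown, differed by -1.13, from 8.44 ± 0.20 (SD, n = 2) in wild type to 7.31 ± 0.23 (SD, n = 4), and Kyat3, a kynurenine aminotransferase, by -0.069. Abat, the GABA aminotransferase, differed by -0.064 and Bcat1, of branched-chain amino acids, by -0.016. The mean of Bcat1, 4.41, was close to the array medians. The median of the list was -0.016.

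All 5 partners of Got1 and Got2 in the malate-aspartate shuttle had a lower mean, by small amounts. The share with a lower mean was 51.9% of all genes and 61.5% of those with a mean above 4.8, where 2 of the 5 lay. Slc25a13, the aspartate-glutamate carrier of liver mitochondria, differed by -0.096 (unadjusted p = 0.0108, adjusted p = 0.784 by limma). Its paralogue Slc25a12 differed by -0.030, the oxoglutarate carrier Slc25a11 by -0.052 and the cytosolic malate dehydrogenase Mdh1 by -0.050. The list median was -0.052, beside -0.67 for Got1 and 0.044 for Got2 (0.0049 on its chromosome 8 row). Slc25a12, Slc25a11 and Slc25a13 had means of 4.50, 4.67 and 4.77, near the floor, where differences are compressed.

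Carriers of glutamine, glutamate and related amino acids held 4 of 8 on the lower side and 0 on the higher by that measure. Slc38a4, a carrier of neutral amino acids, differed by -0.36, Slc7a2, which carries arginine and ornithine rather than glutamine, by -0.24, and Slc25a22, the mitochondrial glutamate carrier, by -0.048. Slc1a2 was the remaining 1, and Slc1a2 and Slc25a22 lay near the floor with means of 4.75 and 4.57. Of the 8 carriers, 5 had a lower and 3 a higher mean. Slc38a3, the brightest of the list (mean 8.79) and named after its values were seen, differed by 0.13, with overlapping groups. Proline and ornithine genes outside the set had 2 of 7 lower and 0 higher. Slc25a15, the ornithine carrier of mitochondria, differed by -0.090 and Prodh, the proline dehydrogenase, by -0.057. Pycrl and Aldh18a1, of proline synthesis, had 0.024 and 0.013, with means of 4.62 and 4.46 near the floor. Other glutamate and glutamine enzymes had 0 of 10 lower and 1 higher. This was Gclc, the catalytic subunit of glutamate-cysteine ligase, with 5.58 in Pcyt2+/- against 5.41 in wild type (difference 0.17, limma adjusted p = 0.310). Asns, Gfpt1 and Ctps, which use glutamine as a nitrogen donor, had -0.015, 0.015 and 0.017. Their means of 4.39, 4.39 and 4.32 lay below the array medians, so these values do not show whether they differed.

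Genes that answer to glucocorticoids and fasting lay on the same side as Got1, Gpt2 and Oat. All 14 of that list had a lower mean, beside 51.9% of all genes and 61.5% of those with a mean above 4.8. By limma 6 of them had an unadjusted p under 0.05, beside 3.44% of all genes and 13.9% of those above 4.8. The median was -0.096. Of the 14 genes, 7 had a mean above 4.8, and the others lay in the dim band of the array, where differences are compressed. Sgk1, Tsc22d3, Per1 and Ppargc1a, named after their values were seen, had means of 4.35, 4.33, 4.36 and 4.33. These lay below the array medians, so their values do not show whether they differed, although Ppargc1a is among the 6. The summed linear signal of the 14 was 764 to 1010 in Pcyt2+/- livers and 1290 in both wild type livers. That sum weighs bright genes most, among them Pck1 and G6pc (means 7.87 and 7.45), both named after their values were seen. The groups of G6pc overlapped and those of Pck1 did not. Tat belongs to this list too, and Mt2, a metallothionein, differed by -1.07, Cpt1a, which admits fatty acids to mitochondria, by -0.20 and Klf15, a regulator of amino acid breakdown, by -0.077. Their part in the differences of the enzyme genes was not tested.

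**Figure D5:**
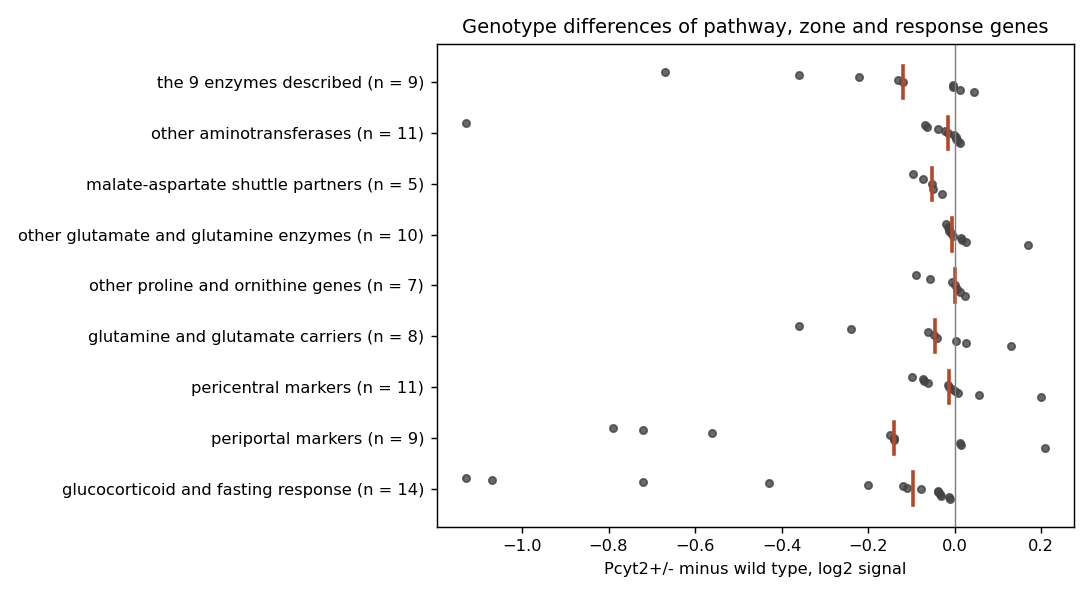
Difference of Pcyt2+/- minus wild type liver (x axis, log2 signal) for every measured gene of each list, with the list's median as a bar. The 9 enzyme genes have a median of -0.12, the periportal markers -0.14 and the glucocorticoid and fasting genes -0.096, and the other pathway lists and the pericentral markers lie between -0.052 and 0.002. Means above 4.8 were held by 7 of the 9 enzyme genes, 6 of 9 periportal markers and 7 of 14 glucocorticoid and fasting genes. They were held by 4 of 11 pericentral markers, 4 of 11 other aminotransferases and 2 of 10 other glutamate and glutamine enzymes. Differences near the floor are compressed, so these medians do not rank the lists.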

How the data were processed

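Total RNA of snap-frozen liver was labelled for Affymetrix arrays, per the labels' protocols. The authors deposited a log2 signal for each probe set, and the submitters' processing notes name RMA. The sources used here give neither an RMA version nor a genome build. The table held 28996 rows for 6 arrays. Rows with 1 gene symbol in the platform annotation numbered 21218, with several 1881 and unnamed here 5897, and 21185 of the first matched RefSeq by gene identifier. The number of arrays limits the precision, as arrays have no depth.

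Genotype differences are Pcyt2+/- minus wild type, fitted in R 4.3.3 by limma 3.58.1 (lmFit, then eBayes, two-sided, without covariates) and adjusted over 18820 genes at 0.05. For single genes and gene pairs an exact permutation test, two-sided, ran over the 15 splits. The planned pairs of Glul and Oat with Gls2 were not run, as Gls2 had no row. Other steps used Python 3.11.15, pandas 2.3.3 and matplotlib 3.10.9. The fit was tested on simulated data.

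The enzyme genes and lists were chosen with earlier results of these data known. Named genes were the set, Pcyt2, up to 4 genes per list with the smallest unadjusted p, and the 3 genes nearest in profile to Got1, Glul and Oat. Genes outside this rule are marked as named after their values were seen, and cell type markers were named by level. Other settings were filters, row choices, scalings, a floor subtraction, another variance prior, array weights, leaving out each array, and the mouse number as a block. The row choice by neighbouring rows was added after seeing the data.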

Additional observations from a re-analysis of the deposited data

How the results depend on the processing

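Got1, Gpt2, Glud1, Oat and Glul kept a lower mean in Pcyt2+/- under every setting run, and none of the 9 genes passed limma in 14 of the 15 planned settings. The exception was median centring over genes with a mean above 5, where 3 passed: Got1 (-0.63, adjusted p = 2.98e-43), Gpt2 (-0.19) and Oat (-0.32), as did Pcyt2 (-0.16). There the array offset enters every dim gene alike, limma's prior degrees of freedom became infinite (2.83 as deposited), and its p-values no longer use a gene's own spread. The count over all genes was 163 there, 9 with a trended and robust prior, 3 with genes above 5, 3 with the floor subtracted, 2 with a replicate block and 0 to 9 when 1 array was left out. The number of genes with a lower mean was 5 to 8 without 1 array, and 4 when genes with a mean above 5 entered, which leaves 5 of the set. Gpt was 0.031 with median centring and -0.024 to 0.016 without 1 array. Prodh2 was 0.0092 with quantile normalization, 0.033 with median centring and -0.018 to 0.016 without 1 array, and Aldh4a1 was -0.00098 to 0.026. The cause of these turns of sign was not tested. With the row of its own chromosome Got2 was 0.0049 and Glul -0.079. The mouse numbers 3 and 4 occur in both groups (correlation of deviations 0.12 and 0.13), but 2 shared numbers do not show pairing. With them as a replicate block Got1 was -0.76, Oat -0.35 and Glul -0.23, and no gene of the set passed. Fits without 1 wild type array assume that the other varies like the Pcyt2+/- arrays.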

Other observations

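The genes nearest in profile to Glul and Oat were found as for Got1. Over the 6 arrays the nearest genes to Glul were Hal, the histidine ammonia-lyase (root-mean-square difference 0.110), Ces1b, a carboxylesterase (0.110), and Fth1, the ferritin heavy chain (0.112), against a deviation of 0.198 for Glul itself. The nearest to Oat were Aldh1a1, a retinaldehyde dehydrogenase (0.0802), Fth1 (0.087) and Cth, which makes cysteine from cystathionine (0.0916), against 0.198 for Oat itself. Aldh1a1 differed by -0.39 and Cth by -0.23 between the genotypes.

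Otc, which joins ornithine and carbamoyl phosphate in the urea cycle, had 5.89 in Pcyt2+/- and 5.88 in wild type liver, a gene named after its values were seen. Of 10 measured clock genes, 0 passed limma over all genes, and 1, on the higher side, had an unadjusted p under 0.05. Arntl differed by 0.030, Tef by -0.035, Npas2 by 0.034 and Per1 by -0.038, with all 4 in the dim band of the array.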
